A study of Mus musculus with 4 samples.

Results

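The genes described here are 10 genes of the yolk sac, endoderm and epithelium (Afp, Ttr, Apoa1, Apob, Rbp4, Amn, Cubn, Hnf4a, Epcam and Cdh1). They were chosen by name and not by their measured values, out of 20701 gene symbols in the transcript table. Earlier results of these data were known when they were chosen. RNA-Seq was done on cardiac progenitor cells derived from mouse E14 embryonic stem cells that carry the Nkx2-5-EmGFP transgene, which makes cells with Nkx2-5 reporter activity fluoresce. The cells were differentiated for 5 days and sorted for GFP, so every library comes from the reporter-positive gate. There were 4 libraries, 2 control and 2 Isl1-/- (Isl1_KO, made with CRISPR/Cas9 and 2 guides), and both genotypes carried the reporter and had been kept on feeder fibroblasts before differentiation. Control and knockout cells each came from 2 different clones, so a difference between the Isl1_KO libraries can be one between clones, and it cannot be told apart from one between differentiations.

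Visceral endoderm, the outer epithelium of the early embryo and later of the yolk sac, feeds the embryo before the placenta works. Its cells take up proteins and lipids from their surroundings through endocytic receptors and secrete carrier proteins and lipoproteins that the liver makes later in life. Hnf4a is a nuclear receptor that drives many of these secreted protein genes in yolk sac and liver, while Epcam and Cdh1 encode surface proteins that hold epithelial cells together and are also made by pluripotent cells and other epithelia. In bulk RNA, fewer cells of such a type and less RNA in each of them cannot be told apart.

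The promoters of 8 of the 10 genes had an entry in the RefSeq promoter table (GRCm38.p6), with 10 windows of 300 bases that run from 250 bases before the start to 50 after it. The forkhead-type motif TGTTTGC, read on both strands, was in the windows of Afp, Apoa1 and Apob (3 of 10 windows) and in 5.07% of all 32851 windows. The second forkhead-type motif, TGTTTAC, was in a Rbp4 window and in 3.65% of all windows. The following windows are shown because Afp and Apob encode secreted proteins that were lowest in Isl1_KO replicate 2, whereas Epcam was highest there. In the first pair, capitals mark TGTTTGC or its reverse complement, and in Epcam they mark the E-box CACCTG or its reverse complement, which is the kind of letters that repressors of epithelial genes bind.
Afp, chr5:90490464-90490763, plus strand: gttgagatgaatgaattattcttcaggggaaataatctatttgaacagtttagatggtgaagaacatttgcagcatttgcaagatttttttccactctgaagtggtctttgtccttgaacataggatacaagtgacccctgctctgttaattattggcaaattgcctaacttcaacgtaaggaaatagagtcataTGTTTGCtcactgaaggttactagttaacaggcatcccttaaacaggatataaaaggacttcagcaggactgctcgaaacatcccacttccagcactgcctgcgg
Apob, chr12:7977427-7977726, plus strand: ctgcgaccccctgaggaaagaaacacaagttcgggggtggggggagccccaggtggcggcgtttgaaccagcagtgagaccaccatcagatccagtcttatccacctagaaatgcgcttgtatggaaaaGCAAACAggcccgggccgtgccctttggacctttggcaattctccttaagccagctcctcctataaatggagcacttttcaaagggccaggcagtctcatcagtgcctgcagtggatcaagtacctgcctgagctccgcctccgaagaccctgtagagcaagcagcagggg
Epcam, chr17:87635729-87636028, plus strand: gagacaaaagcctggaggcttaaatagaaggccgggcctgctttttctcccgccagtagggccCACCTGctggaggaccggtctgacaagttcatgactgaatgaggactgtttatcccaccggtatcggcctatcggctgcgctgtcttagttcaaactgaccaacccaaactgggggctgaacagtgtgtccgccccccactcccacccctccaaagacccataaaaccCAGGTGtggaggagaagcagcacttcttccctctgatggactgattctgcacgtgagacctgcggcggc
The forkhead-type letters lay 55 to 49 bases before the start of Afp and 121 to 115 bases before that of Apob. CACCTG was in windows of Apoa1, Apob, Epcam and Hnf4a and in 20.2% of all windows, so it was not rare. The HNF1-type letters GTTAAT were in Afp and Hnf4a windows (7.10% of all windows), the GATA-type letters AGATAA in a Hnf4a window (11.2%), and the HNF4-type letters CAAAGTCCA in none of the 10 windows (0.475%). A match describes the letters and shows no binding.

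Levels are CPM, the reads counted for a gene scaled to a common library size, and 1 transcript entry was used for each gene. The libraries held 8821517 and 9147425 counts in control and 13186109 and 11388333 in Isl1_KO. Isl1 itself had 35.1 and 35.7 CPM in control and 1.31 and 2.08 CPM in Isl1_KO, and its log2 fold change was -4.39 (SE 0.212, adjusted p = 0.00277 in edgeR). The control libraries were nearly as close as counting error allows (chi-square per degree of freedom of 1.14), but the Isl1_KO libraries were not (18.7), so each Isl1_KO library is given apart. In edgeR's quasi-likelihood test 311 of 12715 genes (2.45%) passed an adjusted p of 0.05, 247 of them lower in Isl1_KO. Of the 10 genes, 8 had enough counts to be tested, and 0 passed. At an unadjusted p under 0.05, 3 of the 8 were lower in Isl1_KO (Apob, Rbp4 and Cubn), where 12.2% of all tested genes were, and DESeq2 called 2 of them (Apob and Rbp4) at an adjusted p of 0.05, where it called 4.67% of genes. By the study's criteria in DESeq2 (unadjusted p under 0.05 and a change of over 1.5-fold), Apob, Rbp4 and Cubn were lower, against 4.57% of genes.

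Per kilobase of transcript, a scale on which genes can be compared, the epithelial genes and the small secreted carriers were the most abundant of the 10. The mean control level was 41.7 CPM per kilobase for Cdh1, 27.4 for Epcam, 25.3 for Ttr, 15.2 for Rbp4 and 3.09 for Afp. The longer or rarer transcripts followed, with 0.755 for Apob, 0.677 for Apoa1, 0.611 for Hnf4a, 0.402 for Cubn and 0.131 for Amn. From Cdh1 down to Apob, neighbours in this order did not overlap between the control libraries. The control values of Apoa1 overlapped those of Apob, Hnf4a and Cubn.

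**Figure D1:**
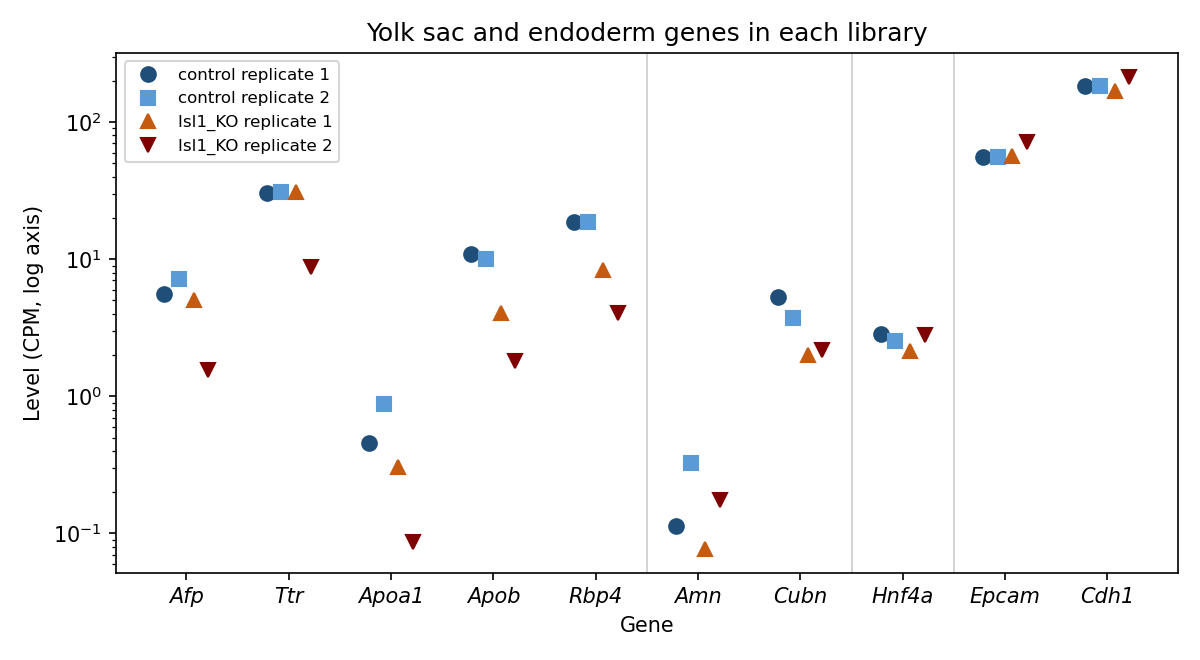
Level of each of the 10 genes (CPM, log axis) in each of the 4 libraries, 1 point per library, with vertical lines between secreted proteins, endocytic receptors, Hnf4a and epithelial genes. Apob and Rbp4 are lower in both Isl1_KO libraries than in control, Ttr is low in Isl1_KO replicate 2 alone (8.85 CPM), and Hnf4a, Epcam and Cdh1 stay near their control levels.

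Among the 4 secreted proteins that were tested, Apob and Rbp4 had the largest differences, and both were below control in each Isl1_KO library. Apob encodes the structural protein of the lipoprotein particles that yolk sac and liver export, and it lies on chromosome 12 from 7984454 to 8023641 (plus strand, NCBIM37, the assembly of mm9, as for the gene positions that follow). It had 10.9 and 10.1 CPM in the control libraries (96 and 92 counts), 4.07 CPM in Isl1_KO replicate 1 (53 counts) and 1.82 CPM in Isl1_KO replicate 2 (21 counts). Both Isl1_KO values were thus below both control values, with replicate 2 the lowest. The log2 fold change was -1.81 (SE 0.366, 95% confidence interval -2.74 to -0.88), and it did not pass in edgeR (unadjusted p = 0.00384, adjusted p = 0.0791). The call depended on the method, since the adjusted p was 0.00407 in DESeq2 and 0.0353 in edgeR with the replicate number as a block.

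Rbp4, the carrier of retinol in plasma (chromosome 19, 38191110 to 38199811, minus strand), had the same order of libraries. Its level was 18.8 CPM in each control library (166 and 172 counts), 8.38 CPM in Isl1_KO replicate 1 (109 counts) and 4.08 CPM in Isl1_KO replicate 2 (47 counts). The groups did not overlap, and the difference between the Isl1_KO libraries was far larger than that between the control libraries. The log2 fold change was -1.58 (SE 0.328, interval -2.42 to -0.75), with an unadjusted p of 0.00425 and an adjusted p of 0.0814 in edgeR, 0.00129 in DESeq2 and 0.0353 in edgeR with the replicate block. Rbp4 in replicate 1 was 0.445 times the pooled control level (exact 95% counting interval 0.355 to 0.554) and in replicate 2 it was 0.217 times that level (0.156 to 0.294). The corresponding ratios of Apob were 0.389 (0.281 to 0.530) and 0.174 (0.105 to 0.274). Such intervals take in counting error alone, as PCR copies of a molecule could not be removed.

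Ttr and Afp differed from control mainly in one of the Isl1_KO libraries. Ttr encodes transthyretin, the carrier of thyroid hormone that also binds the Rbp4 protein. It had 30.3 and 31.1 CPM in control, 31.2 CPM in Isl1_KO replicate 1 and 8.85 CPM in Isl1_KO replicate 2 (267, 284, 406 and 102 counts). Replicate 1 was at the control level, with a ratio of 1.02 (0.892 to 1.16), and replicate 2 stood apart, with a ratio of 0.288 (0.231 to 0.357). The log2 fold change over the groups, -0.60 (SE 0.538, interval -1.97 to 0.76), did not pass in edgeR (adjusted p = 0.541), and without Isl1_KO replicate 2 it was 0.02. An exon of Ttr overlaps Gm16090 on the opposite strand, and counting took both strands together, so reads of this pair cannot be told apart.

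Afp, the alpha-fetoprotein gene and the classic product of visceral endoderm (chromosome 5, 90919740 to 90937933, plus strand), had 5.56 and 7.22 CPM in control, 5.00 CPM in Isl1_KO replicate 1 and 1.56 CPM in Isl1_KO replicate 2. Both Isl1_KO values were below control, but replicate 1 only just, at 0.780 times the pooled control level (0.566 to 1.07), against 0.244 (0.140 to 0.403) in replicate 2. The log2 fold change was -0.94 (SE 0.521, interval -2.26 to 0.38), which did not pass in edgeR (adjusted p = 0.339), and it was -0.36 without Isl1_KO replicate 2. Apoa1, the main protein of high density lipoprotein, was counted 4 and 8 times in control and 4 times and once in Isl1_KO and was not tested. Its ratio to the pooled control level was 0.460 (0.108 to 1.52) in replicate 1 and 0.130 (0.00304 to 0.877) in replicate 2, so counting error alone left replicate 1 undecided and put replicate 2, with its 1 count, below control.

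Summed over the 5 secreted proteins, the level was 66.1 and 68.1 CPM in control, 49.0 in Isl1_KO replicate 1 and 16.4 in Isl1_KO replicate 2. The median log2 difference of the 4 that were tested was -0.75 in replicate 1 and -2.07 in replicate 2. Between the Isl1_KO libraries, Ttr was 3.53-fold lower in replicate 2 than in replicate 1 (2.83 to 4.43), Afp 3.20-fold (1.87 to 5.73), Apob 2.24-fold (1.33 to 3.90) and Rbp4 2.05-fold (1.45 to 2.96). Thus 4 of the 8 tested genes, all of them secreted proteins, were at least 2-fold lower in replicate 2 than in replicate 1, where 3.88% of all tested genes were. This compares 2 libraries and has no replicate check.

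**Figure D2:**
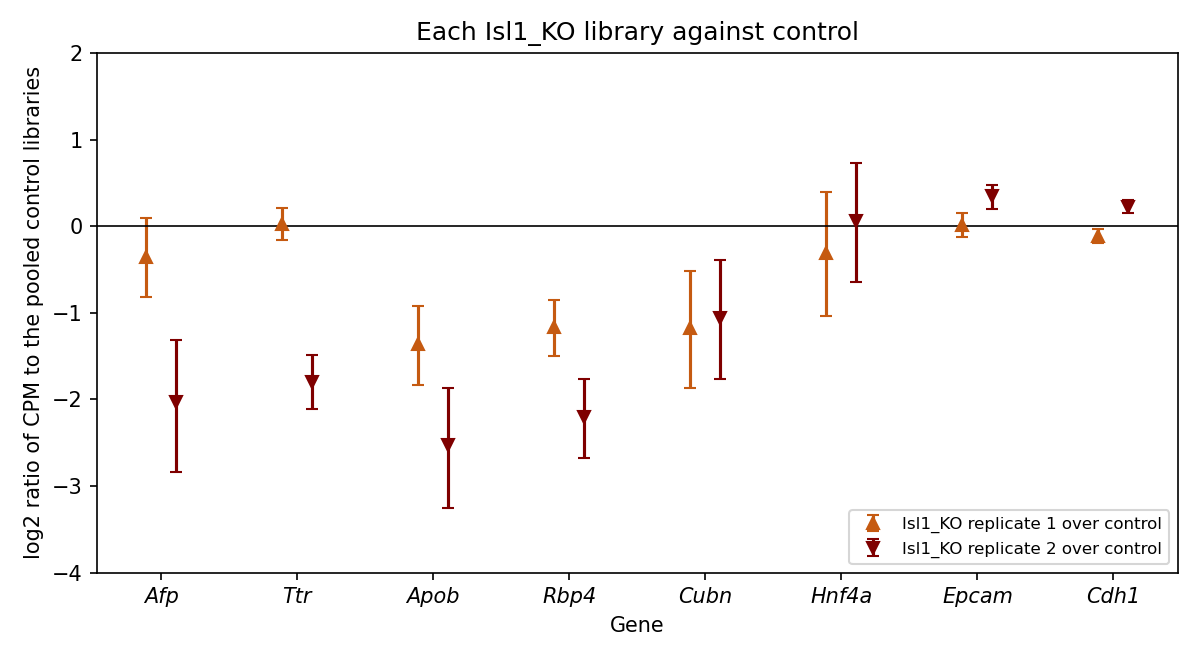
Log2 ratio of the CPM of each Isl1_KO library to that of the pooled control libraries for the 8 genes tested, with exact 95% counting intervals as bars and a line at no difference. Both libraries lie below the line for Apob, Rbp4 and Cubn, and for Ttr replicate 1 sits on the line (ratio 1.02) while replicate 2 is far below it (ratio 0.288).

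Cubn and Amn encode the parts of the receptor complex cubam, in which Cubn protein binds its ligands and Amn protein anchors it in the membrane. Cubn had 5.34 and 3.72 CPM in control and 2.00 and 2.17 CPM in Isl1_KO (47, 34, 26 and 25 counts). Both Isl1_KO libraries were below both control libraries and nearly equal to each other, with ratios to control of 0.443 (0.273 to 0.696) and 0.481 (0.294 to 0.761). The fold by which replicate 2 lay below replicate 1 was 0.921 (0.511 to 1.66). That interval did not reach those of Ttr and Afp, but it overlapped those of Apob and Rbp4. The log2 fold change was -1.12 (SE 0.288, interval -1.85 to -0.38), with an unadjusted p of 0.0108 and an adjusted p of 0.116 in edgeR and 0.316 in DESeq2. Cubn (chromosome 2, 13197965 to 13413551, minus strand) has an exon that overlaps one of Gm13270 on the opposite strand, with the same limit as for Ttr. Amn was counted at most 3 times in a library (1, 3, 1 and 2 counts in the same order), at or under the floor of 3 counts (0.340 and 0.328 CPM in control), and was not tested.

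Hnf4a (chromosome 2, 163332544 to 163398646, plus strand) was low in every library and its groups overlapped. It had 2.84 and 2.52 CPM in control and 2.15 and 2.78 CPM in Isl1_KO (25, 23, 28 and 32 counts). The log2 fold change was -0.12 (SE 0.278, interval -0.83 to 0.58, edgeR adjusted p = 0.825), and a difference within this interval was not detectable at this depth. In Isl1_KO replicate 2, where Ttr, Afp, Apob and Rbp4 were lowest, Hnf4a was at 1.04 times the pooled control level (0.642 to 1.66).

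The epithelial genes had the narrowest intervals of the 8. Epcam, which encodes a cell surface adhesion protein (chromosome 17, 88035319 to 88050446, plus strand), had 56.1 and 56.0 CPM in control, 56.7 CPM in Isl1_KO replicate 1 and 71.1 CPM in Isl1_KO replicate 2. Both Isl1_KO values were above control, replicate 1 by less than counting error, and the log2 fold change was 0.19 (SE 0.126, interval -0.13 to 0.51, edgeR adjusted p = 0.424). Cdh1, which encodes E-cadherin (chromosome 8, 109127251 to 109194146, plus strand), had 183 and 185 CPM in control, 169.9 CPM in Isl1_KO replicate 1 and 215 CPM in Isl1_KO replicate 2, which lie on either side of control. Its log2 fold change was 0.06 (SE 0.122, interval -0.25 to 0.37, edgeR adjusted p = 0.793), and it was -0.12 without Isl1_KO replicate 2. In replicate 2, Epcam was 1.25 times (1.13 to 1.39) and Cdh1 1.27 times (1.19 to 1.34) the level in replicate 1, the opposite order to that of the secreted proteins.

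Over the 8 tested genes, 6 had negative and 2 positive log2 fold changes, with a median of -0.77 (all tested genes, -0.00). For 4 of the 8 (Afp, Apob, Rbp4 and Cubn), both Isl1_KO libraries were below both control libraries, where 29.0% of all tested genes were. The label of the 10 genes therefore covers genes with different values. The intervals of Apob, Rbp4 and Cubn lay below 0. Those of Ttr, Afp and Hnf4a, with negative differences, and of Epcam and Cdh1, with positive ones, took in 0. Epcam and Cdh1 do not mark endoderm alone.

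Other plasma proteins of yolk sac and liver were mostly near the floor. Of 15 such genes in a list drawn up for this comparison, 6 could be tested and 0 passed in edgeR. These had 3 negative and 3 positive log2 fold changes, with a median of 0.04. Apoc3 and Serpina1a had no counts in any library, and Alb, the albumin gene, had 1 count in one control and in one Isl1_KO library. Trf, which encodes the iron carrier transferrin, had the same order of libraries as Rbp4, with 3.06, 2.52, 1.84 and 0.694 CPM (log2 fold change -1.10, SE 0.480, edgeR adjusted p = 0.246). Apom, a lipoprotein carrier of signalling lipids, had 5.79, 4.49, 3.92 and 2.08 CPM (-0.76, SE 0.361, adjusted p = 0.282). Apoe, which many cell types make, had a difference of the opposite sign, with 353 and 342 CPM in control and 424 and 490.3 CPM in Isl1_KO (log2 fold change 0.40, SE 0.0903, edgeR adjusted p = 0.0932). Apoc1 (1.14, 1.09, 1.31 and 0.868 CPM) and Apoa2 (1.25, 1.64, 1.15 and 2.00 CPM) had overlapping values. Their log2 fold changes were -0.02 (SE 0.390) and 0.11 (SE 0.413).

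The machinery that loads lipoproteins and takes up ligands had small differences beside those of Apob and Cubn. Of 14 listed genes, 12 were tested and 0 passed in edgeR, 11 were negative, and the median was -0.13. Mttp, which loads lipid onto the Apob protein, had 25.4 and 21.1 CPM in control and 22.5 and 18.3 CPM in Isl1_KO, overlapping values, where Apob was lower in both. Lrp2, the partner of cubam in endocytosis, had 59.5 and 56.6 CPM in control and 49.0 and 55.4 CPM in Isl1_KO (log2 fold change -0.15, SE 0.0970, edgeR adjusted p = 0.393). Clu, a secreted chaperone, was lower chiefly in Isl1_KO replicate 2, with 124, 124, 101 and 48.8 CPM (log2 fold change -0.73, SE 0.323, adjusted p = 0.255).

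The transcription factors that act with Hnf4a gave 0 calls in edgeR among 8 tested of 12 listed, with 4 negative and 4 positive values and a median of -0.09. DESeq2 called a gene of this list, lower in Isl1_KO. In edgeR, 3 of the 8 had an unadjusted p under 0.05 in either direction, and 12.2% of all tested genes were lower at that p. Both Isl1_KO libraries were below both control libraries for 3 of the 8, where 29.0% of all tested genes were, and above both for 1. Foxa2, a forkhead factor of endoderm, had 7.61 and 6.89 CPM in control and 6.46 and 6.16 CPM in Isl1_KO (log2 fold change -0.20, SE 0.179, edgeR adjusted p = 0.544). Its relative Foxa1 had 17.5, 13.7, 11.8 and 10.2 CPM (-0.50, SE 0.183, adjusted p = 0.195).

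Among regulators of extraembryonic and definitive endoderm, 12 of 14 listed genes were tested and Gata6 was the 1 that passed, with 8 positive and 4 negative values and a median log2 fold change of 0.28. Gata6, which specifies extraembryonic endoderm and also acts in cardiac progenitors, fell from 149 CPM in each control library to 82.9 and 64.0 CPM in Isl1_KO (log2 fold change -1.02, SE 0.130, edgeR adjusted p = 0.0332). Among the fits tried, its call was lost only without control replicate 1 or 2 (adjusted p = 0.338 and 0.298). Sox17, a factor of both kinds of endoderm, had overlapping values of 11.5, 8.86, 10.3 and 11.5 CPM (0.10, SE 0.190, adjusted p = 0.782). Eomes, a T-box factor of the primitive streak and of definitive endoderm, was highest in the library where Ttr and Afp were lowest, with 13.7 and 12.1 CPM in control, 18.2 CPM in Isl1_KO replicate 1 and 88.1 CPM in Isl1_KO replicate 2 (log2 fold change 2.03, SE 0.750, edgeR adjusted p = 0.196). Lhx1, a LIM-homeodomain factor of the early endoderm and mesoderm, was also highest there, at 21.3 CPM against 6.47, 7.22 and 6.00 CPM in the others. Cxcr4, a chemokine receptor of definitive endoderm and mesoderm, was above control in both Isl1_KO libraries, with 17.0, 13.9, 26.6 and 45.5 CPM (1.22, SE 0.288, edgeR adjusted p = 0.0998, DESeq2 adjusted p = 0.00258). Ihh, a hedgehog ligand made by visceral endoderm, was below control on the CPM scale in both, with 49 and 58 counts in control and 52 and 29 counts in the deeper Isl1_KO libraries (-0.86, SE 0.288, edgeR adjusted p = 0.172).

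Some markers of other cell types that the gate could hold were also lowest in Isl1_KO replicate 2, and their part in the results was not tested. Parietal endoderm lines the outer wall of the yolk sac and lays down its basement membrane. All 9 of its listed markers had negative log2 fold changes and 0 passed in edgeR. The differences were not of 1 size, since Col4a1 was near no difference (-0.02) with overlapping values of 886, 902, 957 and 805 CPM. At an unadjusted p under 0.05, 4 of the 9 were lower (12.2% of all tested genes), and for 7 both Isl1_KO libraries were below both control libraries (29.0% of all tested genes). Their median was -0.35, with -0.17 in Isl1_KO replicate 1 and -0.62 in Isl1_KO replicate 2, and their summed level was 3663 and 3677 CPM in control, 3573 in replicate 1 and 2555 in replicate 2. Of these, Thbd, a surface marker of parietal endoderm and endothelium, had 3.63, 3.61, 2.00 and 0.607 CPM, and Nid1, a basement membrane protein, had 637, 630.2, 565 and 224 CPM. The 8 primitive blood markers, 1 of which passed, had 4 negative and 4 positive values and summed to 536 and 544 CPM in control and to 394 and 270.4 CPM in Isl1_KO. In control the embryonic globins made up most of that sum, but in Isl1_KO replicate 2 most of it came from Runx1 and Tal1. Hbb-bh1 had 284, 293, 159.7 and 42.0 CPM and Hba-x 98.3, 97.7, 40.6 and 3.64 CPM. Runx1, a factor of blood formation, passed in the other direction, with 70.4, 71.9, 102 and 109.7 CPM (log2 fold change 0.57, SE 0.0734, edgeR adjusted p = 0.0335, or 0.510 and 0.444 without control replicate 1 or 2). The blood factors Tal1 (38.0, 39.9, 58.3 and 90.1 CPM) and Gata1 (9.08, 8.10, 14.5 and 16.4 CPM) were also above control in both Isl1_KO libraries and did not pass in edgeR (adjusted p = 0.0973 and 0.0698).

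**Figure D3:**
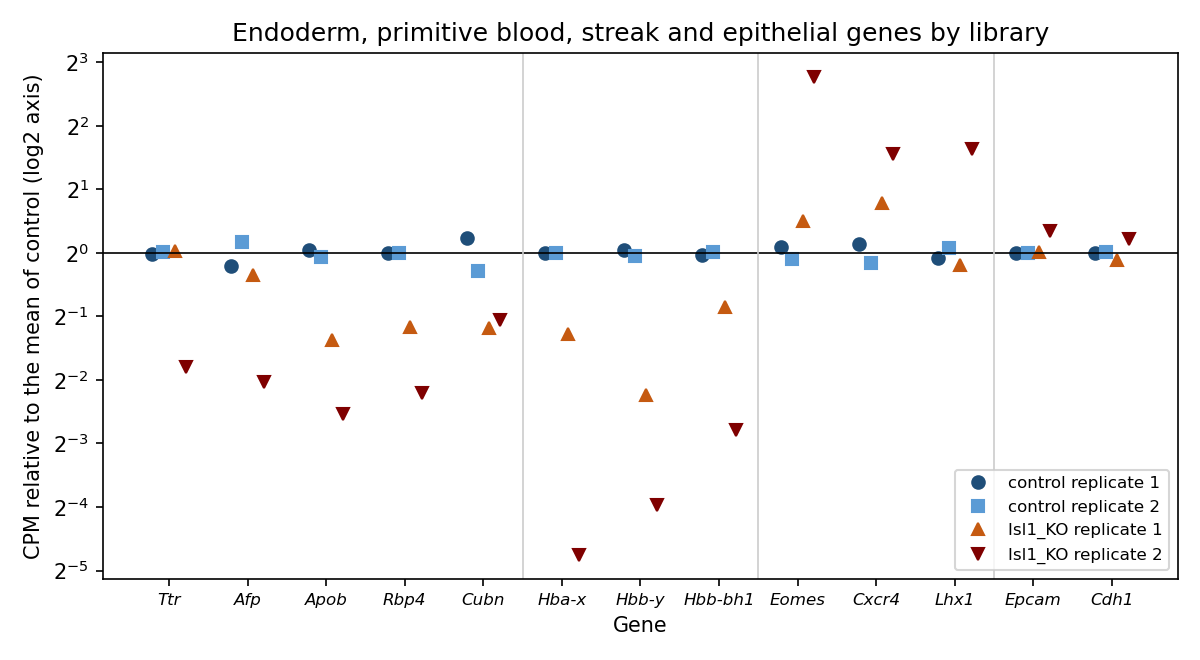
CPM of each library relative to the mean of the control libraries (log2 axis) for members of 4 groups, from left to right endoderm products and Cubn, embryonic globins, endoderm regulators and epithelial genes. In Isl1_KO replicate 2, Ttr, Afp and the globins are lowest and Eomes is highest (88.1 CPM), while Epcam and Cdh1 stay close to control. The members do not stand for their whole lists. The endoderm regulators had 8 positive and 4 negative log2 fold changes, with Gata6 at -1.02. The blood markers had 4 of each sign, with Runx1 at 0.57.

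The epithelial list, which extends Epcam and Cdh1, had 0 calls among 24 tested of 25 listed genes and a median log2 fold change of 0.08. The keratin genes Krt8 and Krt18, intermediate filaments of simple epithelia, had values of 0.07 (SE 0.0696, edgeR adjusted p = 0.570) and 0.14 (SE 0.0848, adjusted p = 0.369). Krt19, another keratin gene of simple epithelia, was below control in both Isl1_KO libraries, with 133, 125, 104 and 86.7 CPM (-0.43, SE 0.105, edgeR adjusted p = 0.102). Cdh3, the P-cadherin gene, had 85.4, 90.7, 70.3 and 29.2 CPM, lowest in replicate 2 (-0.82, SE 0.387, edgeR adjusted p = 0.281). Of 8 genes for catenins and other proteins of adherens junctions (Cdh2 included), 0 passed, with a median of -0.20. Of 10 repressors of Cdh1 and mesenchymal genes, which also include Cdh2, Twist1 was the 1 that passed, and it fell from 52.7 and 52.5 CPM to 22.9 and 14.1 CPM (log2 fold change -1.50, SE 0.228, edgeR adjusted p = 0.0467; 0.0559 with at least 10 counts in every library, 0.0514 over all transcript entries, 0.388 and 0.354 without control replicate 1 or 2), while the median of the 10 was -0.29.

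Pluripotent cells also make Epcam and Cdh1. Of the 10 markers of these cells, 8 were tested and 0 passed, with a median log2 fold change of 0.28 and summed levels of 498 and 491 CPM in control and 544 and 539.9 CPM in Isl1_KO. Most of that sum came from Lin28a, an RNA-binding protein gene (425, 415, 510.2 and 465 CPM). Pou5f1, a defining factor of that state, had 5.45, 5.91, 6.00 and 14.7 CPM, highest in Isl1_KO replicate 2, while Tdgf1, a Nodal co-receptor gene, was lowest in replicate 1, with 39.6, 40.4, 3.31 and 20.7 CPM (log2 fold change -1.75, SE 0.711, edgeR adjusted p = 0.223). The part of such cells in the Epcam and Cdh1 values was not tested. Surface ectoderm markers (2 tested of 5, summed levels 9.08 to 17.4 CPM) and neural markers (4 tested of 5, 183 to 275 CPM) gave 0 calls. Of the 10 cardiac progenitor markers, 7 passed and were lower in Isl1_KO, and the summed level of all 10 was 1479.9 and 1479 CPM in control and 548 and 574 CPM in Isl1_KO. Between the Isl1_KO libraries these 10 went both ways. Higher in replicate 2 than in replicate 1 were Isl1 (2.08 and 1.31 CPM), Tbx5 (1.13 and 0.999 CPM), Gata4 (88.0 and 69.4 CPM) and Kdr (278 and 186 CPM). The others were lower in replicate 2. Mef2c, a cardiac transcription factor among the 7 that passed, had 171 and 177 CPM in control. It was lower in Isl1_KO replicate 2 (6.85 CPM) than in replicate 1 (11.5 CPM), as were Hand2 (35.6 and 52.4 CPM) and Tnnt2 (7.89 and 13.4 CPM). Nkx2-5, whose reporter set the gate, was among them, with 21.1 and 19.8 CPM in control and 4.77 and 4.34 CPM in Isl1_KO (edgeR adjusted p = 0.00703, or 0.134 and 0.108 without control replicate 1 or 2, where the calls of Tbx5 and Hand2 were also lost), so markers of the labelled cell type were present in every library and lower in Isl1_KO.

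**Figure D4:**
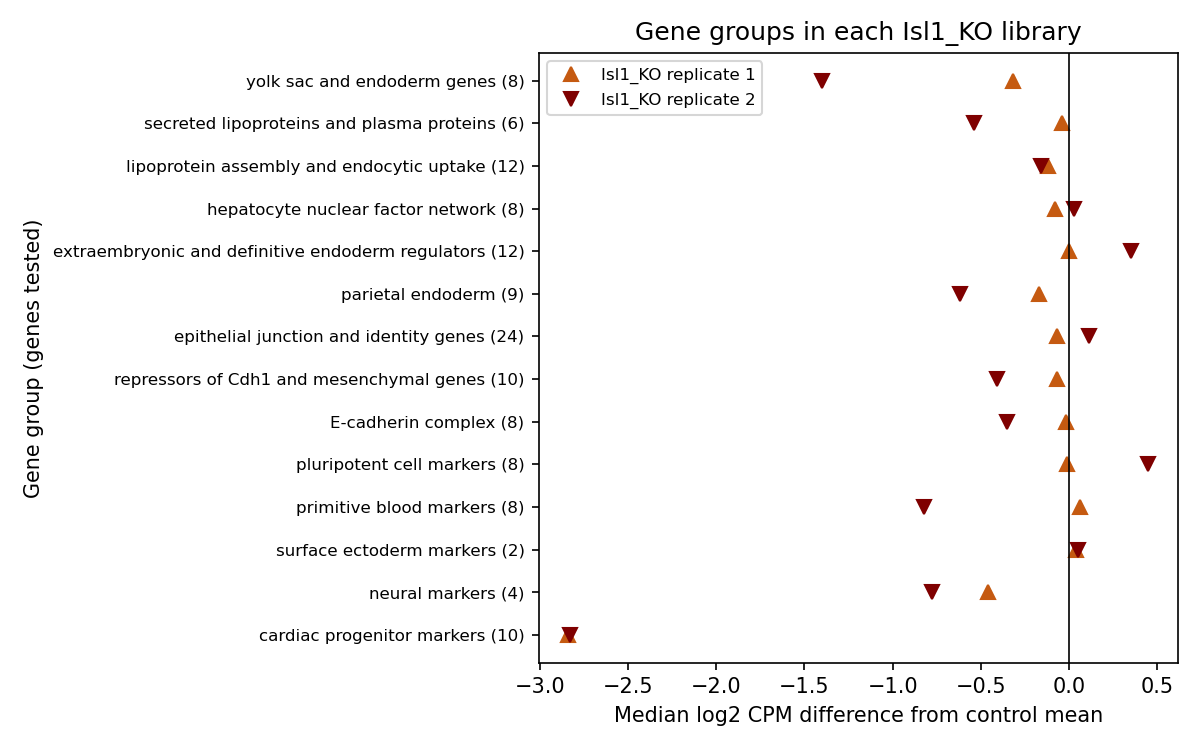
Median log2 CPM difference of each Isl1_KO library from the control mean, for the yolk sac and endoderm genes and 13 other gene lists, with the number of genes tested in parentheses. The 8 tested yolk sac and endoderm genes had medians of -0.32 in replicate 1 and -1.40 in replicate 2, and the cardiac list had medians of -2.84 and -2.83, although some of its genes differed between these libraries.

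The genes nearest to the mean profile of the 8 tested genes over the 4 libraries were Lbp, Stk38l, Itpripl2, Grb10 and Fam161a, out of 1532 genes whose profile varied enough to be compared. Lbp, a plasma protein that binds bacterial lipopolysaccharide, had 2.95, 2.84, 2.00 and 1.30 CPM, and its centred log2 profile lay at a distance of 0.0243 from that mean. With 4 libraries many genes have a like profile, so this is a description only.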

How the data were processed

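Poly(A) RNA of sorted day 5 cardiac progenitors was sequenced in 4 stranded libraries. The authors mapped reads to mm9 with STAR (introns of 20 to 500000 bases) and the deposited counts are exonic reads per RefSeq transcript from HOMER, on both strands and without adjustment. RPKM values in the deposited table came from edgeR and served only to check the columns (recomputed within 0.746%). Tool versions of the authors are not given in the sources used here. Columns of the authors' own comparison (DESeq2 mean, fold change, its error and p-values) were not used, and 0 columns of per-sample values were left unmatched. The titles and genotypes say knockout and were followed, although the series' design text speaks of knockdown.

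From 31507 entries, the one with the highest summed count was kept per symbol (57.0% of all counts). Of 3 Hnf4a entries, 2 tied and the first was kept. Library totals were 8821517 to 13186109 counts, and 3 counts correspond to 0.228 to 0.340 CPM. Genes were tested with edgeR 4.0.16 (quasi-likelihood, TMM, filterByExpr, no covariate, two-sided, Benjamini-Hochberg over 12715 genes) in R 4.3.3, after a check on simulated data. CPM uses TMM library sizes, and profiles use log2 CPM with a prior count of 1. DESeq2 1.42.0 was an alternative, and other filters, scalings, transcript entries, a replicate block and leaving out each library were also tried. With 2 libraries a group, the smallest two-sided p of an exact permutation test is 0.333, so p-values rest on spread shared across genes. Promoter windows are those of RefSeq on GRCm38.p6 and were not compared with mm9 coordinates. Ratio intervals are exact and conditional on the summed counts.

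The members and lists were chosen with earlier results of these data known. Named genes were the 10 genes and Isl1, every listed gene past the threshold, up to 4 genes of each list with the highest level per kilobase, and the 5 nearest profiles (SD of at least 0.5). Alb, Apoc3, Serpina1a, Trf, Mttp, Lrp2, Sox17, Ihh, Lhx1, Thbd, Cdh3 and Gata1, outside that rule, were named after their values were seen. Some genes of the lists are counted in them but not reported here by name.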

Additional observations from a re-analysis of the deposited data

How the results depend on the processing

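Of the 10 genes, edgeR called 0, and 2 (Apob and Rbp4) were called by DESeq2, without the filter on low counts and with a replicate block, 3 passed the study's criteria, and 0 to 7 were called when a library was left out. Over all genes the 311 calls became 604 with DESeq2 (306 shared), 492 without the filter (311 shared), 217 with at least 10 counts in every library, 454 with the replicate block and 993 with the study's criteria, and 27 to 6350 when a library was left out. Among the listed genes 10 calls became 19 with DESeq2 and 4 to 87 with a library left out. Without control replicate 1 or 2 there were 27 and 29 calls, and without Isl1_KO replicate 1 or 2 there were 6350 and 4176. In the latter fits the lone Isl1_KO library is assumed to vary like the control pair, which the spread between the Isl1_KO libraries does not bear out, so those calls are not used. Deviations of libraries with the same number were unrelated (r = 0.0144 over 12715 genes), so the replicate numbers are not known to pair them.

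No tested gene named here changed sign outside the fits that left out a library. In those, the log2 fold change changed sign in at least one fit for Ttr (-1.79 to 0.02), Hnf4a (-0.31 to 0.05), Cdh1 (-0.12 to 0.22), Apoc1 (-0.36 to 0.23), Apoa2 (-0.33 to 0.46), P4hb (-0.18 to 0.04), Lrp1 (-0.08 to 0.04), Prox1 (-0.30 to 0.29), Col4a1 (-0.15 to 0.10), Vim (-0.25 to 0.28), Tcf3 (-0.18 to 0.09), Vcl (-0.65 to 0.01), Sox2 (-0.48 to 0.31), Nes (-0.38 to 0.19), Sox3 (-0.71 to 0.10), Kdr (-0.21 to 0.37), Sox17 (-0.07 to 0.30) and Lhx1 (-0.19 to 1.63). Apob (-2.51 to -1.36), Rbp4 (-2.20 to -1.17) and Cubn (-1.35 to -0.83) kept their sign in each. Afp ranged from -2.03 without Isl1_KO replicate 1 to -0.36 without Isl1_KO replicate 2, and Ttr from -1.79 to 0.02 in the same fits. For Amn and Apoa1, with at most 8 counts in a library, depth was the limit, and no test was made.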
